A study of Mus musculus with 6 samples.

Results

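The genes described are 10 members of the zinc and metal-buffering system of the mouse intestinal epithelium, of 55331 genes in the series: the metallothioneins Mt1, Mt2, Mt3 and Mt4, the transcription factor Mtf1, the exporters Slc30a1, Slc30a2 and Slc30a10, and the importers Slc39a4 and Slc39a5. They were matched by gene symbol. The set was chosen by an earlier reading of the authors' group levels, in which Mt1 and Mt2 stood out, so the WT and PTBP1_KO values of these genes are given as a description and support nothing by themselves. Crypt cells of the small intestine gave 3 libraries of polyadenylated RNA labelled WT and 3 labelled PTBP1_KO, from C57BL/6 mice at 60 days of age. The WT genotype was Ptbp1f/f, with floxed alleles and no Cre, and the PTBP1_KO genotype was Ptbp1f/f;Vil-creER+/-, in which villin regulatory sequence drives a tamoxifen-dependent Cre in intestinal epithelium. Both groups were given tamoxifen at 100 mg/kg in 2 daily injections, and cells were taken 20 h after injection 2. Active Cre and loss of PTBP1 cannot be told apart, because the controls carried no Cre. PTBP1 is an RNA-binding protein that regulates alternative splicing.

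Metallothioneins are small cysteine-rich proteins that bind zinc and copper in the cytosol and buffer free metal. MTF1 is the zinc-sensing transcription factor that binds metal response elements in the promoters of Mt1, Mt2 and Slc30a1. SLC30 proteins move zinc out of the cytosol, across the plasma membrane or into vesicles, and SLC39 proteins move it into the cytosol. In the small intestine, Paneth cells are rich in zinc and in metallothionein.

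The coding sequences of the metallothioneins are shown because the cysteine codons, in capitals, are the metal-binding part, and because the similarity of Mt1 and Mt2 bears on how reads were assigned. They are from GENCODE M21, given 5′ to 3′ from the start codon to the stop codon.
Mt1: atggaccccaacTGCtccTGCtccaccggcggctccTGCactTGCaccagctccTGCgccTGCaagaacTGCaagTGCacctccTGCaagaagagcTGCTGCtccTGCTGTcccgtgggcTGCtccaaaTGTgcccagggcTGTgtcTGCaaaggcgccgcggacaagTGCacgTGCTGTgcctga
Mt2: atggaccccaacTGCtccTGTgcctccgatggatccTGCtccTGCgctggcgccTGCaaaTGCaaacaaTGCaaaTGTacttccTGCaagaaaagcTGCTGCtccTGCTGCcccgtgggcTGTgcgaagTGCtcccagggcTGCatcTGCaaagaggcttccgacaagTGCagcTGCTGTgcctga
Mt3: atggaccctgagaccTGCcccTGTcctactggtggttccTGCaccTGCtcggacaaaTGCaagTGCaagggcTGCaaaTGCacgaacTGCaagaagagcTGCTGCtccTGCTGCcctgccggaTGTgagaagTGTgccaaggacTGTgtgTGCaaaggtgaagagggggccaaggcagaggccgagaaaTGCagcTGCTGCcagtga
Mt4: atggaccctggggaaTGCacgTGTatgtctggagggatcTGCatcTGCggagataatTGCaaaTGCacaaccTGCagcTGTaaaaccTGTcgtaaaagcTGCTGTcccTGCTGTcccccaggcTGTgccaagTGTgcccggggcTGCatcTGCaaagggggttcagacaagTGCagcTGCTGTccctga
Each of the 4 holds 20 cysteine codons. They make up 32.8% of the 61 codons of Mt1 and of Mt2, 29.4% of the 68 of Mt3 and 32.3% of the 62 of Mt4. Mt1 and Mt2 were identical at 148 of 186 aligned coding bases (79.6%), and the longest run they shared was 20 bases. Mt1 and Mt3 shared 66.2% of aligned bases and a longest run of 27 bases, and Mt2 and Mt4 shared 73.2%.

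The 250 bases before the RefSeq start (GRCm38.p6) are printed for Mt1 and Mt2, the members whose levels differed most between the groups. Capitals mark matches to the metal response element core, searched as TGCACNC and TGCGCNC on both strands, so a match on the other strand appears as its reverse complement. The Mt1 stretch is chr8:94178839-94179088 and the Mt2 stretch is chr8:94172368-94172617, both on the plus strand. The start codons lie further downstream, at 94179311 in Mt1 and 94172848 in Mt2. GENCODE also lists Mt1 transcripts that start at 94179211 and 94179241. Further matches lie between the printed stretches and the start codons. From the first printed base to the start codon, a window chosen after seeing the data, there were 5 in Mt1 and 7 in Mt2.
Mt1 promoter: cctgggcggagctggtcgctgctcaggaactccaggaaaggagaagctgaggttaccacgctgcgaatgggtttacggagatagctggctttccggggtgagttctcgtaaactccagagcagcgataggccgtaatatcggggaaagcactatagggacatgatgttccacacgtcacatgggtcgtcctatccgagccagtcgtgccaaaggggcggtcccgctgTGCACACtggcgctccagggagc
Mt2 promoter: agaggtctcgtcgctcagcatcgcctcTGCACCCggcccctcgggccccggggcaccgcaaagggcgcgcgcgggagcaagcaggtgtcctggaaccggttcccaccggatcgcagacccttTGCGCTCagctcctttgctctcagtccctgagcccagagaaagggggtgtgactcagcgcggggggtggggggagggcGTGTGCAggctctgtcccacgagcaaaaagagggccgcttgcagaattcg
A window of 300 bases, from 250 before to 50 after the start, was scanned for all members in the RefSeq promoter table, which held 9 of the 10 (Slc39a4 was the other) in 10 windows. Of all 32851 windows in that table, 25.7% held at least 1 match, 7.11% at least 2, 1.97% at least 3 and 0.517% at least 4. These shares are not matched for GC content, whose median was 52.7% over all windows. Of the 10 member windows 7 had at least 60% GC, against 9690 of all 32851. Mt1 had 60.7% and Mt2 67.7%. Mt2 held 4 matches, Mt1 and Slc30a10 held 3, and Slc30a1 and Slc30a2 held 2. In Slc30a10, 2 of the 3 overlapped each other on opposite strands. Mt3 and Mt4 held 1 each, Mtf1 held 0, and Slc39a5 held 1 at its upstream start and 0 at its downstream start. A match is a run of letters and not a shown binding site.

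**Figure D1:**
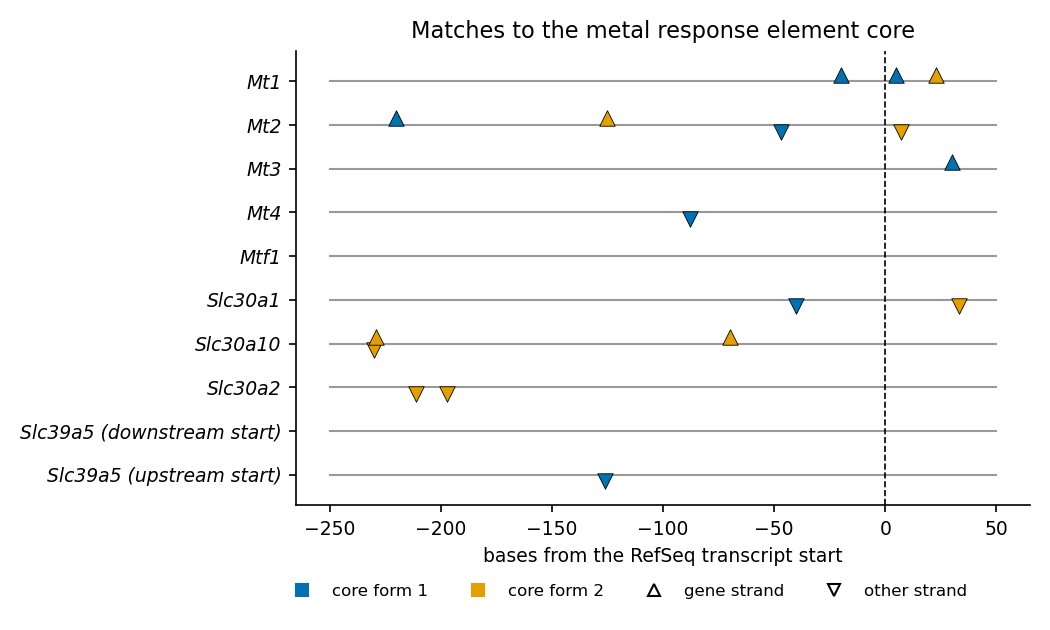
Matches to the metal response element core in the 300-base promoter windows of 9 members. The horizontal axis is distance from the RefSeq start in bases, colours give the core form (form 1 is TGCACNC) and triangles the strand. Mt2 has 4 matches and Mt1 has 3.

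Gene levels were deposited as a single FPKM per group (fragments per kilobase of transcript, scaled to library size), with no value per library, so no spread can be attached to them and the depth is unknown. Ptbp1, the targeted gene, was 230.0 FPKM in WT and 122.8 FPKM in PTBP1_KO, which is 53.4% of the WT level over the whole gene. Fewer cells of a type and less RNA per cell cannot be told apart in bulk libraries. All 6 epithelial markers were present (Epcam, Cdh1, Vil1, Krt8, Krt18, Cldn7), with a summed level of 3680 FPKM in WT and 4022 FPKM in PTBP1_KO. Paneth and T and NK cell markers were higher in PTBP1_KO, as given beside the metallothioneins. The labels do not say whether the libraries of a group came from separate mice, so the authors' p-values measure only the spread between these samples, which may be technical.

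Mt1 (ENSMUSG00000031765.8, mm10, chr8:94179082-94180327, plus strand) was the most abundant metallothionein. It was listed at 184 FPKM in WT and 304 FPKM in PTBP1_KO, a gain of 119.6 FPKM and a 1.65-fold higher level. The authors' deposited table gives it a log2 fold change of 0.72 with a p of 5e-05 and a q of 0.0125. By WT level Mt1 stood at place 500 among 15460 tested genes.

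Mt2 (ENSMUSG00000031762.7, chr8:94172664-94173568, plus strand) was listed at 19.3 FPKM in WT and 54.0 FPKM in PTBP1_KO, a gain of 34.8 FPKM and a 2.80-fold higher level. For Mt2 the authors' deposited table lists a log2 fold change of 1.49, also with a p of 5e-05 and a q of 0.0125. These are the smallest p and q in the authors' deposited table, and 62 genes share that q. An antisense gene, Gm45774, overlaps Mt2 and was listed at 0.0104 FPKM in WT and 0.00321 FPKM in PTBP1_KO. Antisense or overlapping genes also lie at Mtf1, Slc30a1, Slc30a10 and Slc39a5. The library kit marks strand, but whether the counting used it is not given in the sources used here.

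Mt3, mainly known from brain, was listed at 0.622 FPKM in WT and 0.745 FPKM in PTBP1_KO. The authors' deposited table gives a p of 0.64 for it. Mt4, known from stratified squamous epithelium, was listed at 0 in WT and 0.127 FPKM in PTBP1_KO, and the authors did not test it. Both levels are far below those of Mt1 and Mt2, and no fold is given for Mt4.

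Summed over the 4 metallothioneins, the level was 204 FPKM in WT and 359 FPKM in PTBP1_KO, 1.76-fold higher. Mt1 contributed 77.4% of the gain and Mt2 22.5%. Mt1 made up 90.2% of the summed level in WT and 84.7% in PTBP1_KO, while Mt2 went from 9.45% to 15.1%. The ratio of Mt1 to Mt2 was 9.55 in WT and 5.62 in PTBP1_KO.

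Among the 60 genes called higher in PTBP1_KO, Mt2 stood at place 19 by log2 fold change and 14 by FPKM gained, and Mt1 at place 53 by log2 fold change and 10 by FPKM gained. The 9 called genes that gained more FPKM than Mt1 were AY761184, Ang4, Defa29, Mptx2, Defa5, Defa2, Defa20, Defa17 and Defa34. Ang4 and the Defa genes encode antimicrobial proteins of Paneth cells.

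Mtf1 (chr4:124802104-124849800, plus strand) stood at 11.2 FPKM in WT against 12.3 in PTBP1_KO. A log2 fold change of 0.13 with a p of 0.775 stands for it in the authors' deposited table.

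Slc30a1 (chr1:191906767-191913247), the plasma membrane zinc exporter, was listed at 4.75 FPKM in WT and 5.15 FPKM in PTBP1_KO, and the authors' deposited table gives a p of 0.512. Slc30a2 (chr4:134343181-134354484), which loads zinc into vesicles and is used by Paneth cells for their granules, was listed at 7.31 FPKM and 9.64 FPKM, 1.32-fold higher. Slc30a10 (chr1:185454848-185468762), known as a manganese exporter, was listed at 3.32 FPKM in WT and 2.71 in PTBP1_KO, 0.816 of the WT level. In the authors' deposited table Slc30a2 had a p of 0.0243 and a q of 0.813, and Slc30a10 a p of 0.161 and a log2 fold change of -0.29.

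Slc39a4 (chr15:76612383-76617384, minus strand), the apical zinc importer that is mutated in acrodermatitis enteropathica, was listed at 59.3 FPKM in WT and 62.6 FPKM in PTBP1_KO. Slc39a5 (chr10:128395931-128401229, minus strand), a zinc importer of the basolateral membrane, was listed at 70.0 FPKM and 72.6 FPKM. The authors' deposited table gives log2 fold changes of 0.08 and 0.05, with p of 0.612 and 0.869. These were the most abundant of the 10 genes after Mt1.

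**Figure D2:**
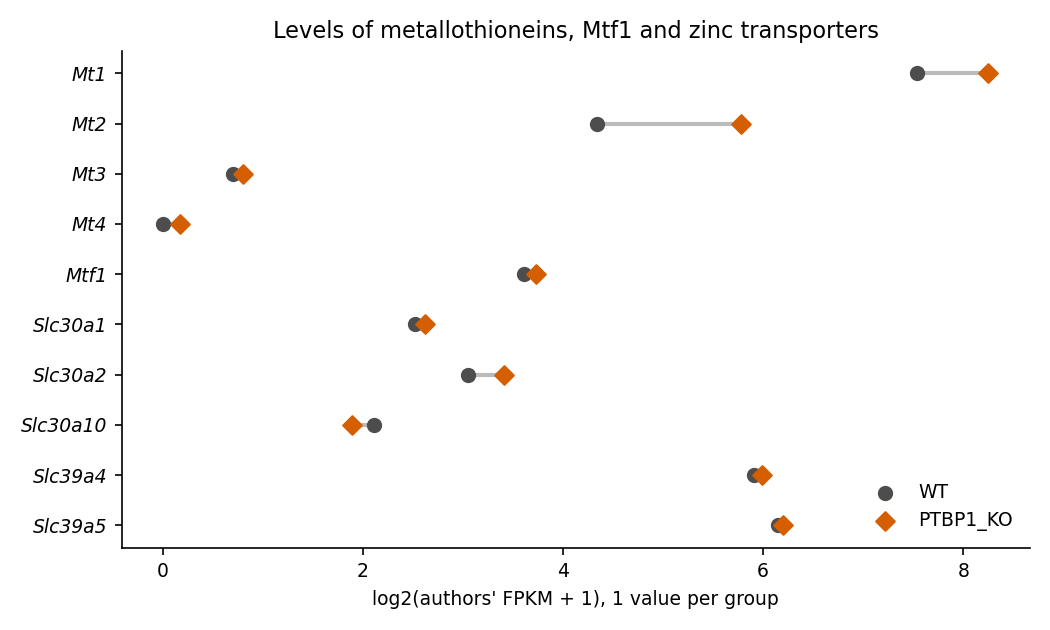
FPKM of the 10 genes in WT and PTBP1_KO, 1 deposited value per group with no error, on an axis of log2(FPKM + 1). Mt1 and Mt2 have the widest gap between the groups, 184 to 304 FPKM and 19.3 to 54.0 FPKM.

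Of the 9 tested genes, 8 were listed higher in PTBP1_KO and 1 lower (Slc30a10). Over all tested genes, 8455 were listed higher and 7005 lower, the background for every such count below. At the authors' q below 0.05, 2 of 9 (22.2%) were called, Mt1 and Mt2, both higher. Over all 15460 tested genes 83 were called (0.537%), of which 60 were higher (0.388%), and nothing is read from the comparison because the genes were chosen on this contrast. At an unadjusted p below 0.05 there were 3 of 9, the third being Slc30a2, against 4.35% of all tested genes. Slc30a2 has the smallest q among the members that were not called, 0.813 in the authors' deposited table, against 0.0125 for Mt1 and Mt2. The median log2((PTBP1_KO + 1)/(WT + 1)) was 0.10 over the 9 and 0.02 over all tested genes.

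**Figure D3:**
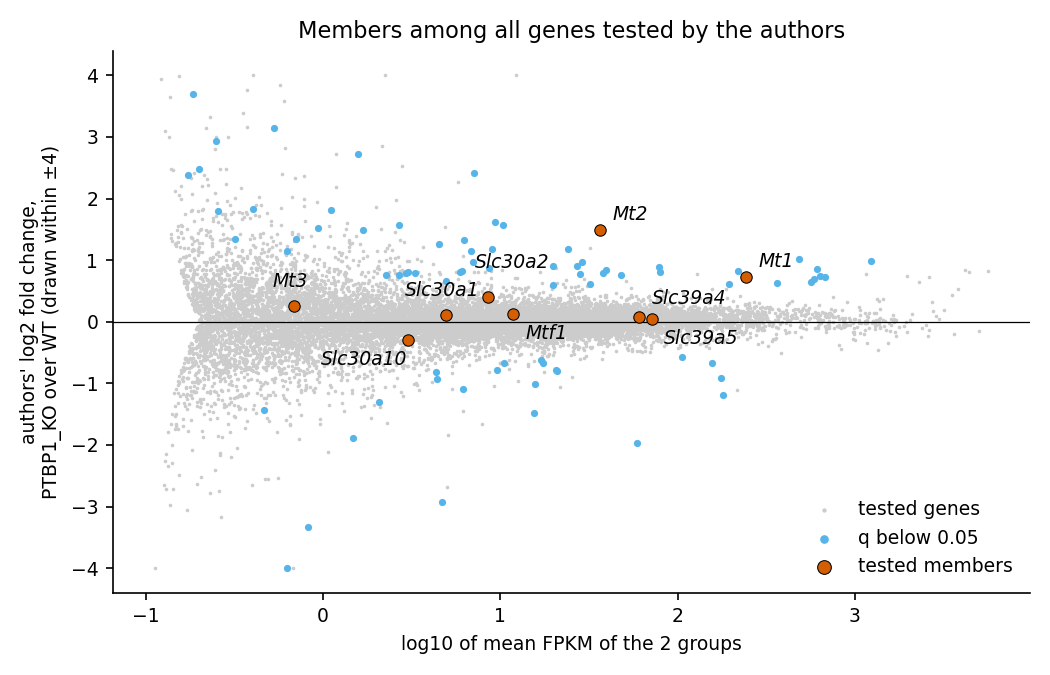
Tested genes by log10 of the mean FPKM of the 2 groups and the authors' log2 fold change of PTBP1_KO over WT, drawn within ±4, with the 9 tested members in orange and called genes in blue. Mt2 (1.49) and Mt1 (0.72) lie above the bulk of the genes, and the other tested members lie between -0.29 and 0.40.

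The 4 metallothioneins lie side by side on the plus strand of chromosome 8 within 43131 bases (chr8:94137197-94180327). Of 12 genes within 100 kb, 7 were tested, and of the 4 that are not metallothioneins 0 were called. Nup93, a nuclear pore gene, was listed at 17.4 FPKM in WT and 18.4 FPKM in PTBP1_KO, and Ogfod1 at 5.22 and 6.05 FPKM. Bbs2 was listed at 3.87 and 3.77 FPKM and the pseudogene Rpl10-ps5 at 0.467 and 0.385 FPKM. Their p in the authors' deposited table, in the same order, were 0.603, 0.337, 0.920 and 0.882.

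Among 52 called genes of at least 5 FPKM in the higher group, the 5 closest to Mt2 in log2 fold change were Ephx1, Saa1, Retnlb, Egr1 and Trim72. Ephx1, a detoxifying epoxide hydrolase, was listed at 5.23 FPKM in WT and 15.5 FPKM in PTBP1_KO. Saa1, an acute-phase gene, was listed at 4.58 and 14.1 FPKM, and Retnlb, a goblet cell gene, at 3.56 and 8.97 FPKM. Egr1, an immediate early transcription factor, was listed at 2.67 and 6.39 FPKM, and Trim72 at 5.50 and 12.5 FPKM. The authors' deposited table gives these 5 log2 fold changes of 1.57, 1.62, 1.33, 1.26 and 1.18. Likeness here is of a single difference between group values.

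Among the other zinc transporters, 0 of 5 tested SLC30 and 0 of 11 tested SLC39 genes were called, and 0 had a p below 0.05. Of the SLC30 genes 3 were listed higher and 2 lower, with a median log2 ratio of 0.06, and of the SLC39 genes 7 higher and 4 lower, with a median of 0.11. The most abundant were Slc30a5 (48.2 FPKM in WT, 54.6 in PTBP1_KO), Slc30a9 (18.8, 20.3), Slc30a6 (18.2, 17.8), Slc39a7 (78.5, 84.4), Slc39a1 (32.7, 39.1) and Slc39a11 (32.1, 39.4). Slc30a8 and Slc39a12 were listed at 0 in both groups.

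Lists of other metal and stress genes were read the same way, beside the 8455 of all 15460 tested genes that were listed higher. Of 8 copper genes 4 were listed higher and 4 lower, with a median log2 ratio of 0.01 and 0 called. Of 10 iron genes 8 were higher and 2 lower, with a median of 0.05 and 0 called. In both lists 0 genes had a p below 0.05. Of 10 tested genes of the NRF2 oxidative stress response, which also acts on metallothionein genes, 7 were higher, 0 were called and 1 had a p below 0.05. Gsr, glutathione reductase, was listed at 132 FPKM in WT and 167 in PTBP1_KO, with a p of 0.0318 and a q of 0.933 in the authors' deposited table. Of 9 heat shock genes 3 were higher, and all 8 tested glucocorticoid response genes were. In these lists 0 genes were called and 0 had a p below 0.05. The smallest p of the glucocorticoid list, in the authors' deposited table, was 0.170 for Fkbp5 (12.6 FPKM in WT, 14.5 in PTBP1_KO). Of 8 tested cytokine and acute-phase genes 6 were listed higher and 2 lower, and 1 was called, Saa1. Its relative Saa3, named after its values were seen, was listed at 2.42 FPKM in WT and 1.35 in PTBP1_KO, with a p of 0.0741 in the authors' deposited table.

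Markers of cells that the crypt preparation holds differed beside the metallothioneins. All 8 Paneth markers were listed higher in PTBP1_KO, by 1.35-fold to 1.81-fold, and 3 were called, Mmp7 (154 FPKM in WT, 236 in PTBP1_KO), Defa17 (287, 445) and Ang4 (435, 786). Their summed level was 12521 FPKM in WT and 19585 FPKM in PTBP1_KO, and 7 of the 8 had a p below 0.05. All 9 T and NK cell markers were listed higher, by 1.29-fold to 1.87-fold, with a summed level of 151 FPKM and 246 FPKM, and 3 were called, Gzmb (18.9, 35.3), Gzma (54.9, 101) and Cd8a (4.30, 7.52). None of these markers is at 0. Over all 15460 tested genes, 60 (0.388%) were called higher, and 416 were listed higher with a p below 0.05. The Paneth and the T and NK cell lists were chosen with earlier results of these data known, so nothing is read from these counts. The 1.65-fold of Mt1 lies inside both the Paneth range and the T and NK cell range. The 2.80-fold of Mt2 lies above every marker of both lists. The part of these cells in the Mt1 and Mt2 levels was not tested. In the other marker lists 0 genes were called. The summed level of the 6 stem and crypt markers was 794 FPKM in WT and 736 in PTBP1_KO. That of the 9 enterocyte markers was far higher, 10054 FPKM in WT and 10312 in PTBP1_KO. The macrophage markers summed to 5.83 and 6.17 FPKM, and the stromal markers to 6.53 and 7.41 FPKM. Most of the stromal sum was Vim, at 4.90 FPKM in WT and 6.28 in PTBP1_KO. A p below 0.05 was listed for 0 stem and crypt, 0 enterocyte and 0 macrophage markers and for 3 stromal markers. These 3 were Col1a1, Col1a2 and Col3a1, all lower in PTBP1_KO and near the floor. The most abundant of them, Col3a1, was listed at 0.749 FPKM in WT and 0.328 in PTBP1_KO.

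**Figure D4:**
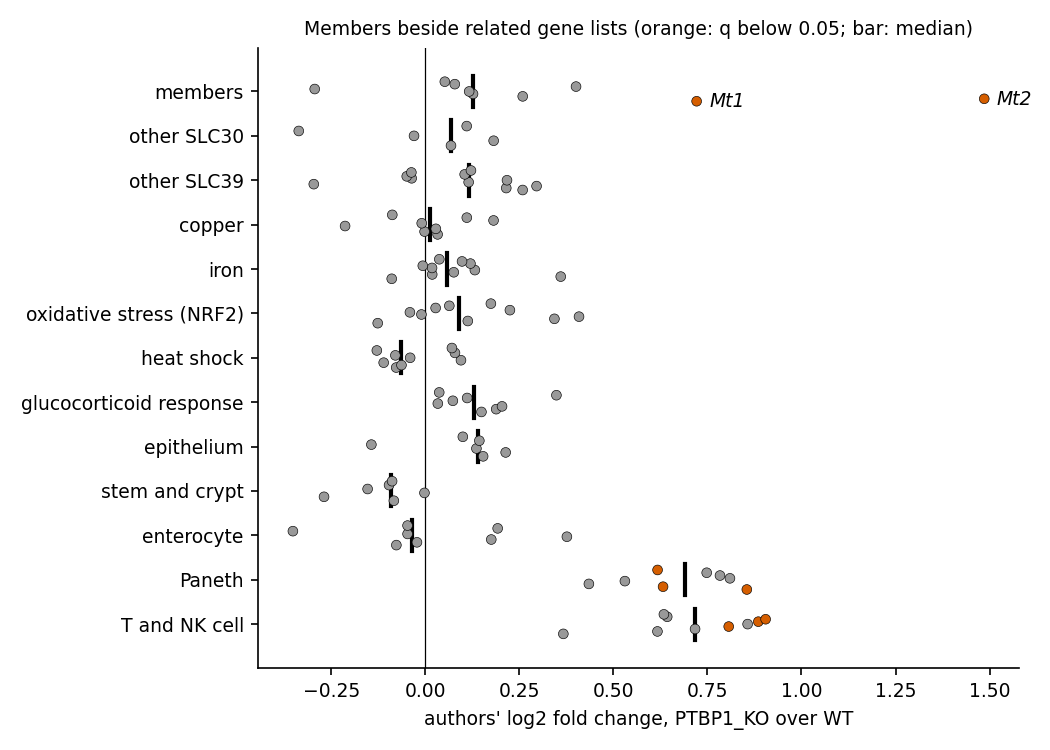
Authors' log2 fold changes of PTBP1_KO over WT for the genes of each list, 1 point per tested gene, orange where q is below 0.05, with a bar at the median; the cytokine, macrophage and stromal lists are not drawn. The Paneth and the T and NK cell lists lie wholly above 0, and Mt2 lies above all of their points.

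The splicing tables list 26 events in 6 of the 10 genes: 19 skipped exons, 5 pairs of mutually exclusive exons and 2 retained introns. None is listed for Mt2, Mt4, Slc30a1 or Slc30a2. Throughout, the 3 libraries called set 1 here stand against 3 others, called set 2. Neither set has a genotype in the headers, so no direction by genotype is given. An event counted as changed at the authors' FDR below 0.05, an inclusion level difference of 0.1 or more and 20 or more reads per library on average. Of the 25 events with enough reads, in 5 genes, 0 were changed, 0 had an FDR below 0.05 and 1 had an unadjusted p below 0.05. Across all events with enough reads, 1.68% of skipped exons, 1.02% of mutually exclusive pairs and 2.06% of retained introns were changed.

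Mt1 exon 2 (chr8:94179823-94179888, 66 bases) was included in 22952 reads and skipped in 3 over the 6 libraries, an inclusion of 99.98%. Mt1 intron 2 (chr8:94179889-94180101, 213 bases) was retained at 1.06% by pooled, length-adjusted reads, 470 against 17622. By library the retention lay between 0.659% and 1.67%, with a median of 1.01%. In the authors' deposited table its inclusion level difference was -0.004, with a p of 0.0515 and an FDR of 0.268. Both values were near full splicing in all 6 libraries.

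The Mtf1 exon of 62 bases (chr4:124803285-124803346) was included in 17 reads and skipped in 604, a pooled inclusion of 1.93% that ran from 0 to 2.85% by library. For it the authors' deposited table gives an FDR of 0.977. The Slc30a10 intron of 672 bases (chr1:185455680-185456351) had a pooled retention of 53.3%, between 50.4% and 58.9% by library, from a mean of 92 reads. The Mt3 exon rested on 72 reads against 1.

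In Slc39a5 a pair listed as mutually exclusive (chr10:128396466-128396656, 191 bases, and chr10:128396751-128396831, 81 bases) had the only p below 0.05 among the members. The authors' deposited table gives a difference of 0.087, a p of 0.00212 and an FDR of 0.0714. Inclusion, here use of the 81-base exon against the 191-base exon, ran from 43.2% to 61.4% by library. As single skipped exons the same 2 exons were included at 99.93% and 99.97%. The lowest pooled inclusion of a Slc39a4 exon listed as a skipped exon was 97.2%. Slc39a4 pairs listed as mutually exclusive had pooled inclusion of 52.8% and 48.1%, and neither was changed.

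Among the other Slc30 and Slc39 genes, 90 events were listed in 14 genes, 87 had enough reads and 1 was changed. Over all events with enough reads, the changed shares were 1.68% of skipped exons, 1.02% of mutually exclusive pairs and 2.06% of retained introns. The count of 1 in 87 is near these shares, and nothing is read from it. The changed event is in Slc39a14, a transporter of zinc, iron and manganese whose alternative exons give different protein isoforms. The event is a pair of mutually exclusive exons. Inclusion, here use of the upstream exon, was 72.9% by pooled reads, from a mean of 321 reads per library. It was 74.3%, 65.6% and 59.5% in the libraries of set 1 and 83.2%, 71.8% and 80.8% in those of set 2. The sets overlap, since 74.3% in set 1 lies above 71.8% in set 2. The authors' deposited table gives a difference of -0.121, a p of 0.000354 and an FDR of 0.0197. Listed there as single skipped exons, neither of the same 2 exons was changed. The smallest FDR was 0.0537 for the downstream exon, at a difference of 0.103, and 0.228 for the upstream exon, at -0.116. The level of the gene was 28.5 FPKM in WT and 30.9 FPKM in PTBP1_KO.

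**Figure D5:**
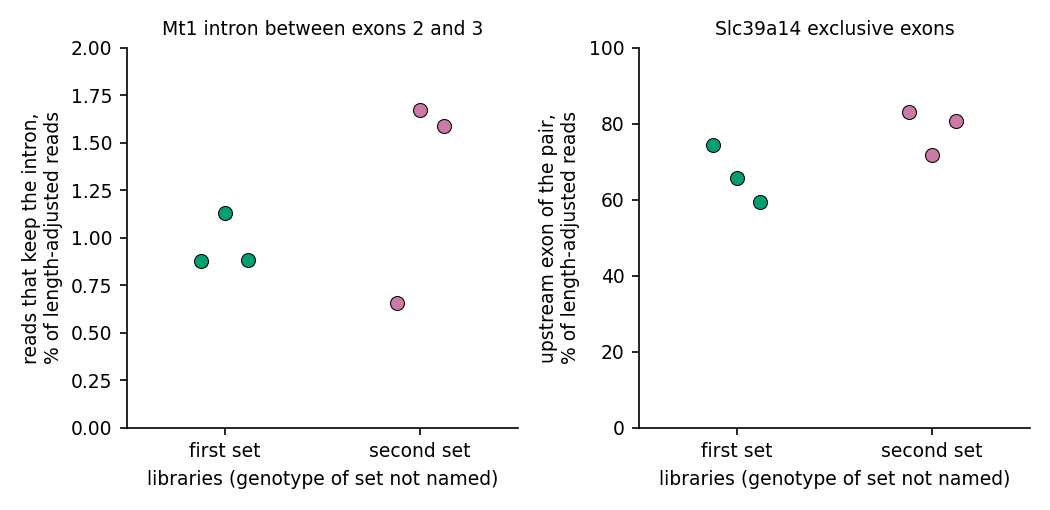
Percent of length-adjusted reads per library that keep Mt1 intron 2 (left) and that use the upstream Slc39a14 exon (right), 1 point per library, by the authors' set 1 and set 2, whose genotypes the headers do not give. Slc39a14 runs from 59.5% to 83.2% and Mt1 intron 2 stays between 0.659% and 1.67%.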

How the data were processed

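Per the submitters' processing notes, the authors used bcl2fastq 2.20, Trimmomatic 0.38 and STAR 2.6.1d, then Cufflinks with Cuffdiff, on mm10. They deposited, per the file headers, a single FPKM per group and gene with its log2 fold change, p-value and q-value. The splicing tables hold read counts per library, an inclusion level difference (a score from -1 to 1) and a p-value and FDR by the authors, in MATS layout per the labels. The 10 columns with a library's inclusion level were left unused, and inclusion was computed from reads divided by effective lengths.

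No test was recomputed, since the gene table has no value per library and the splicing headers name no genotype. The members and gene lists were chosen with earlier results of these data known. Named genes were mainly the members, their neighbours within 100 kb and the most abundant other Slc30 and Slc39 genes. The 5 nearest to Mt2 in log2 fold change among called genes of at least 5 FPKM were also named. In the other lists called genes were named, or genes with the smallest p where none was called. Log2 ratios used a pseudocount of 1 FPKM. Alternatives were other q thresholds, a fold minimum, an FPKM minimum, a pseudocount of 0.1, centring, other read and difference minimums and other promoter windows. Gene positions are from GENCODE M21 on mm10, matched by gene ID without version, and promoters from RefSeq GRCm38.p6. The motif scan was tested on simulated data. Python 3.11.15, numpy 2.4.6, pandas 2.3.3 and matplotlib 3.10.9 were used. The sequences and positions of the exon pair called changed are not reported here.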

Additional observations from a re-analysis of the deposited data

How the results depend on the processing

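No paired analysis was possible because the gene table has 1 value per group and the splicing tables name neither genotype nor replicate, and for the same reason no library could be left out of the gene levels. At a q below 0.01 the called members went from 2 to 0, the called Paneth markers from 3 to 0, the called T and NK cell markers from 3 to 0 and the called cytokine and acute-phase genes from 1 to 0; the smallest q in the table is 0.0125, so no gene can pass. When a log2 fold change of 1 or more in size was asked for, the called members were 1, Mt2. With a difference of at least 0.2 the changed events of the other Slc30 and Slc39 genes went from 1 to 0. In the 250 bases before the start alone, metal response element matches were 1 in Mt1, 0 in Mt3 and 1 in Slc30a1. In a window to the start codon, chosen after seeing the data, they were 5 in Mt1, 7 in Mt2 and 3 in Mt3. The log2 ratio of Mt3 was 0.10 with a pseudocount of 1 and 0.23 with a pseudocount of 0.1. That of Mt4 was 0.17 and 1.18, a size set by the pseudocount because its WT level is 0. The median of the heat shock list was -0.03 over all its tested genes and 0.01 among genes of at least 1 FPKM, and that of the copper list went from 0.01 to -0.01 when centred. The cause was not tested. The median of the stromal list was -0.19, -0.78 with a pseudocount of 0.1 and 0.30 among genes of at least 1 FPKM, where Vim is the only tested gene left. No log2 ratio of the 10 genes changed sign with the other pseudocount or centring. The unknown depth of the gene table limits what can be said of Mt3 and Mt4.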

Other observations

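The splicing tables give values per library for 6 of these genes, in libraries whose genotype the headers do not name, and reads over skipped exons are given here. Reads of the Mt1 exon, per 1000000 reads over all skipped exon events, were 166, 116 and 121 in the libraries of set 1 and 101, 68.6 and 81.3 in those of set 2. Mt1 was chosen because its level differed between groups of these same libraries. The share of all events whose sets separate was not computed, so nothing is read from the order of the sets. The highest library stands 2.41-fold above the lowest. The same ratio was 2.75 with reads over retained intron events as the denominator. The reads behind these values were 5434, 4126 and 4794 in set 1 and 3359, 2212 and 3030 in set 2.

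For Slc30a10 the values were 3.90, 0.790 and 1.33 on the same scale in set 1 and 3.47, 2.02 and 2.25 in set 2, from 128, 28 and 53 reads and from 115, 65 and 84 reads. Its highest and its lowest library, 4.94-fold apart, are both in set 1. The zinc importers varied less, 1.52-fold for Slc39a4 and 1.25-fold for Slc39a5, and Mtf1 varied 1.47-fold. Mt3 had 0, 17 and 25 reads in set 1 and 6, 13 and 12 in set 2.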
